A study of Mus musculus with 50 samples.

Results

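The net change over the first day of activation in knockout CD8+ T cells was read from 10 of the 50 libraries of the study, the 5 libraries of knockout mice (KO) at 24 hours of activation (24h) against the 5 at 0 hours (0h), paired by mouse number. CD8+ T cells were taken with magnetic anti-CD8a beads from the spleens of 10-week-old mice that the labels call naive at 0h, and received antibodies to CD3e, coated on the plate, and to CD28, in solution, each at 2 µg/ml, which engage the T cell receptor and its costimulatory partner. All animals used here carry the strain label C567BL/6J, and the KO animals carry a targeted knockout allele. The study also sampled 2h, 6h and 12h and the same 5 times in 5 wild-type mice (WT), and poly(A) RNA of each culture was sequenced as 50-nt single-end reads. Each mouse gave 1 library per time, so the 2 groups compared hold the same 5 animals. The cells were enriched on beads and not sorted by a gate, every culture after 0h was activated, and in the difference between 24h and 0h activation and a day in culture cannot be told apart.

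Naive CD8+ T cells are small, long-lived cells that circulate through lymphoid organs on homing receptors and the egress receptor S1P1 and depend on the survival cytokine IL-7. Engagement of the receptor and CD28 sends signals through calcium, MAP kinase and NF-kB to early transcription factors of the AP-1, EGR and NR4A families, after which the cells grow in volume, build ribosomes, switch on glycolysis and biosynthesis, enter the cell cycle and make cytokines and granzymes. The quiescence factors KLF2 and FOXO-dependent genes are lost on the way. These steps are background for the order in which the genes are described.

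Counted reads per library ran from 12773186 to 24540996 over the 10 libraries, with a median of 22760080. Library 0h of mouse 3 stood apart: it had the fewest counts, its rank correlation with the other 0h libraries was 0.9457 to 0.9498 (those 4 correlated by 0.9705 to 0.9797 with each other), and 882 of 9756 genes were at least 2-fold off the mean of the others, against 178 to 557 in the other 0h libraries and 42 to 62 at 24h. In that library the 2439 genes with the shortest exon length were higher by a median of 0.356 (log2) than in the other 0h libraries, and the 2436 with the longest were at -0.336. It was also highest for the B cell gene Ms4a1, which encodes CD20 and was at 14.3, 11, 81.4, 9.03 and 11 CPM (counts scaled to equal library size) in mice 1 to 5 at 0h. At 0h mouse 4 carried traces of immature thymocyte transcripts, with Rag1 at 12.9 CPM against at most 0.332 CPM in the other mice. Cd8a, the defining transcript, was at 1529, 1499, 1463, 1546 and 1302 CPM at 0h and at 635, 716, 577, 665 and 682 CPM at 24h, and Cd4 was at most 1.38 CPM in each of the 10 libraries.

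Of 11946 genes with enough counts, 4270 rose (35.7%) and 4415 fell (37.0%), 72.7% in all, between 0h and 24h at an adjusted p under 0.05, in edgeR's quasi-likelihood test with mouse as a block and Benjamini-Hochberg adjustment. At least 4-fold changes were called for 807 genes that rose (6.76%) and 1230 that fell (10.3%), together 17.1%. The median log2 change over all tested genes was -0.02 and the median size of change was 0.81 on the log2 scale. The 24h and 0h values did not overlap for 66.1% of genes, 33.1% in each direction. Without mouse 3, 4599 of 12081 genes rose (38.1%) and 4859 fell (40.2%), and 785 (6.5%) and 1340 (11.1%) did so at least 4-fold. The 4-fold risers took 1.10% to 2.13% of all counts at 0h and 8.75% to 9.11% at 24h, and the 4-fold fallers went from 10.1% to 12.7% of counts to 1.44% to 1.54%. Changes of 64-fold or more were called for 57 risers and 100 fallers. Counts are relative to each library's total, so a change is one of share and not of RNA per cell.

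**Figure D1:**
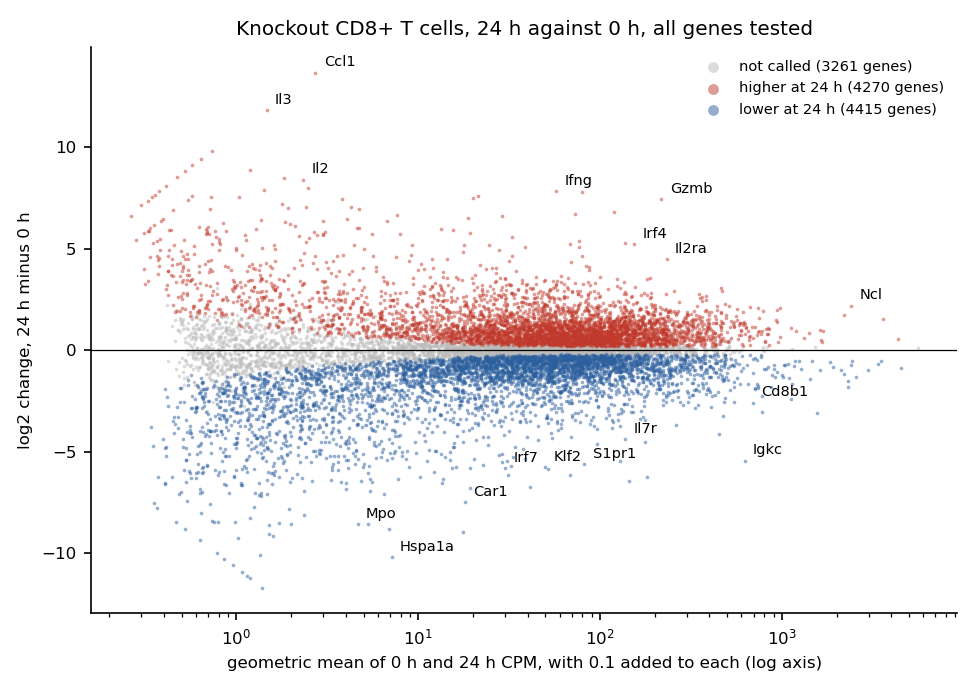
Log2 change from 0h to 24h in KO cells (vertical axis) against the geometric mean level in CPM of both times (horizontal log axis, with 0.1 CPM added), 1 point per tested gene, coloured by call. The 4270 risers and 4415 fallers lie on both sides of 0 at all levels, and the diagonal rows of points at low levels are genes with a group at or near 0 counts.

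Genes of other blood lineages were among the largest falls. Of 10 tested erythroid and platelet genes all 10 fell, with a list median of -7.07 against -0.02 over all genes, and their summed level in all members went from 288 to 824 CPM to 6.57 to 11.6 CPM. Car1, a carbonic anhydrase of red cell precursors, was at 142, 132, 272, 218 and 430.3 CPM in mice 1 to 5 at 0h and at 1.24, 0.8, 1.35, 1.4 and 1.48 CPM at 24h, groups that did not overlap, with a log2 change of -7.49 (SE 0.192, edgeR adjusted p = 9.2e-08). Aqp1 (-8.79), Ermap (-8.55) and Klf1 (-6.54), a red cell water channel, a red cell surface protein and the erythroid master regulator, fell alongside on the same log2 scale. Myeloperoxidase (Mpo) of granulocyte precursors fell by 8.54, all 5 tested neutrophil genes fell, and the sum over all members dropped from 74.2 to 178 CPM to 0.0966 to 0.565 CPM. Only 5 of 11 neutrophil genes and 10 of 14 erythroid and platelet genes had enough counts to be tested. Members at or near 0 at 24h, here and in the lineage lists below, could be tested only through their 0h counts. For such members a fall was fixed in advance. Of 11 genes that went from at least 5 CPM in each 0h library to at most 3 counts in each 24h library, 5 encode proteins known from red cell and granulocyte precursors (Rhag, Kel, Cldn13, Elane, Prtn3), a set picked after its values were seen. In bulk RNA, fewer cells of a type and less RNA per cell cannot be told apart.

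B lineage transcripts fell as well. Of 19 tested B cell genes 18 fell and 0 rose, with a median of -3.04, and the list summed to 11093, 4724, 12846, 7439 and 7768 CPM at 0h and to 690.1, 688, 729, 823 and 815 CPM at 24h. Igkc, the kappa light chain constant region, was at 6512, 1819, 5924, 3502 and 3393 CPM at 0h and 74.8, 67, 71.3, 128 and 118 CPM at 24h, and its groups did not overlap. Plasma cell genes fell for 6 of 7, with sums of 1294 to 6949.6 CPM and 43.1 to 103 CPM. Jchain, which joins secreted antibodies, fell by 5.47, and Cd79a, the signalling chain of the B cell receptor, fell by 3.94. At 24h Cd79a and Ms4a1 were still between 0.869 and 3.24 CPM, and Slc4a1, Mmp8, Siglech and Cd209a, which mark red cells, neutrophils and dendritic cells, were at 0 counts in all 5 libraries. Mmp8, Siglech and Cd209a were at most 0.581, 0.435 and 2.68 CPM at 0h already, so their 0 counts say little. Car1 and Mpo of the erythroid and neutrophil lists kept counts at 24h, Mpo at 0.0416 to 0.522 CPM. For dendritic cell genes the list total was 310 to 463 CPM before culture and 184 to 204 CPM after 24h. Most of the later total came from Bst2, also on the interferon-stimulated list, at 109 to 127 CPM. Flt3, Xcr1 and Clec9a were at most 0.58 CPM at 24h. Ccr9, also on the homing receptor list, fell from 73.4 to 250 CPM at 0h to 2.33 to 4.06 CPM. The total is therefore a poor measure of dendritic cell RNA. Of 8 tested myeloid genes 6 fell and 0 rose, of 9 dendritic cell genes 6 fell and 1 rose, and of 7 NK cell genes 4 fell and 1 rose. Without mouse 3, 7 of 8 NK cell genes fell and 0 rose, and of 9 myeloid genes 7 fell and 1 rose. The dendritic cell riser Batf3 is also an activation-induced factor of T cells. The part of these cells in the falls of genes that T cells share with them was not tested.

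**Figure D2:**
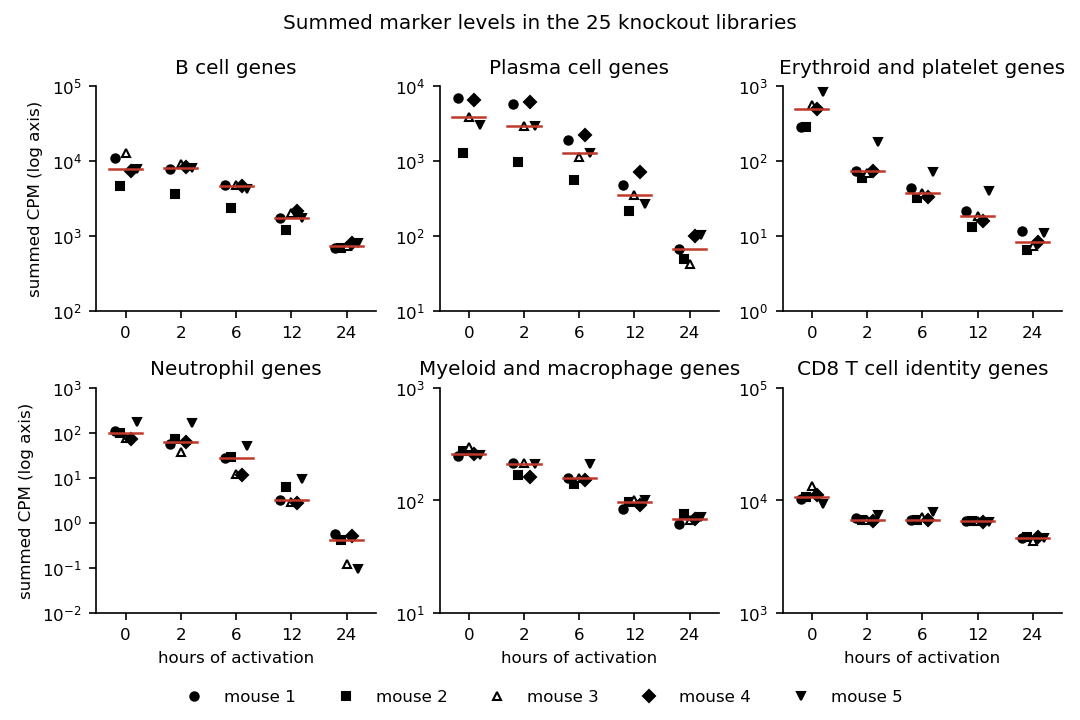
Summed CPM of marker genes of 6 cell types (log axes) against hours of activation, 1 symbol per KO mouse and library, with the median as a red bar. B cell genes went from 4724 to 12846 CPM at 0h to 688 to 823 CPM at 24h, and the sum of the CD8 T cell identity genes went from 9317 to 13319 CPM to 4331 to 4781 CPM.

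Effector messages were among the largest risers, beside genes of other kinds. Of 21 tested cytokine and chemokine genes 18 rose and 2 fell, 15 of the risers at least 4-fold, and the list median was 5.66. Interferon gamma (Ifng), which activates macrophages and antigen presentation, was at 5.82, 3.1, 0.0796, 1.91 and 9.02 CPM in mice 1 to 5 at 0h and at 1237, 521, 574, 828 and 869 CPM at 24h. The lowest of the 0h values was that of mouse 3, the groups were far apart, and the rise was 7.84 on the log2 scale (SE 0.499, edgeR adjusted p = 3.11e-06). Il2, the T cell growth factor, went from 0.175, 0.0887, 0, 0.0867 and 0.0412 CPM to 41.6, 20.8, 27.9, 28.5 and 32.4 CPM, a log2 change of 8.40 (SE 0.3, edgeR adjusted p = 2.78e-07). Ccl1 and Il3 had 0 counts in all 5 libraries at 0h, where 3 counts per library correspond to at most 0.239 CPM, and at 24h they ran from 29.9 to 146 CPM and from 8.08 to 38.2 CPM, so that Ccl1 was at least 125-fold and Il3 at least 33-fold higher. The chemokines Ccl3 (7.79, from 5.79 to 1084 CPM) and Xcl1 (6.80, from 11.8 to 1199 CPM), which draw monocytes and cross-presenting dendritic cells, rose in all 5 mice. The 2 members that fell were Ccl5, a chemokine stored as message in memory cells, at 328, 127, 221, 161 and 337 CPM at 0h and 20.3, 10.8, 13, 15 and 14.6 CPM at 24h, and lymphotoxin beta (Ltb, -2.11).

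Of 19 cytotoxic granule genes tested, 7 rose (36.8%, against 35.7% of all genes), 9 fell (47.4%, against 37.0%) and 3 were not called, with a median of -0.17. Granzyme B (Gzmb, ENSMUSG00000015437, GRCm38 chr14:56258838-56262260), the protease that triggers target cell death, went from 15, 14.8, 1.91, 9.89 and 57.5 CPM to 2426, 2180.4, 2223, 2492 and 2543 CPM, a log2 change of 7.44 (SE 0.613, edgeR adjusted p = 1.1e-05). Mouse 5 was highest at 0h and mouse 3 lowest, while the 24h values lay close together. The serpins that protect the cell from its own granzymes rose too, Serpinb9 by 3.35 and Serpinb6b by 2.90. Granzymes A and M fell, Gzma from 33.9 to 0.622 CPM and Gzmm from 49.7 to 1.24 CPM, log2 changes of -5.73 and -5.23. The NK and memory receptor chain Klrd1 fell by 3.42, and of 19 genes of memory-type CD8 cells 13 fell and 2 rose, among the fallers Ly6c2 (-2.99) and among the risers the adhesion receptor Cd44 (1.75).

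Transcription factors of the early response were mostly higher at 24h, with fallers among the AP-1 genes. Of 24 tested, 16 rose and 5 fell, with a median of 1.33. Nr4a3, an orphan nuclear receptor that follows receptor strength, was at 10.6, 13.5, 6.76, 9.06 and 16 CPM at 0h and 373, 405, 414, 441 and 412 CPM at 24h (SE 0.198, edgeR adjusted p = 3.1e-07), a log2 change of 5.23. Atf3 rose by 7.04, Egr2 by 4.06 and Batf3 by 6.10, whereas Fos fell by 5.83 and Fosb fell by 2.94. Among effector and exhaustion factors 8 of 20 rose and 9 fell, not far from the background of 35.7% and 37.0% over all genes. Irf4, which scales effector growth with receptor signal, went from 25.5, 15.8, 29.8, 20.9 and 36.4 CPM to 856, 897, 950.3, 954 and 971 CPM, and its relative Irf8 rose by 5.29. Tbx21, the T-bet factor of Th1 and killer programs, rose by 2.31 and Bhlhe40 by 3.46. Eomes rose by 0.79 with overlapping groups (adjusted p = 0.00934, and 0.076 without mouse 3), Prdm1, which encodes Blimp-1, fell by 1.92 and Rora fell by 2.32.

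Most costimulatory receptors rose. Of 23 costimulatory receptors and TNF family members 17 rose and 4 fell, with a median of 2.14. Tnfrsf9 (4-1BB), an activation-induced costimulatory receptor, went from 14.2, 8.29, 5.49, 13.1 and 19.6 CPM to 499.6, 481, 407, 504 and 491 CPM, a log2 change of 5.38 (SE 0.234, edgeR adjusted p = 5.82e-07). The RANK ligand Tnfsf11 rose by 5.94, Tnfrsf4 (OX40) by 4.07 and Cd28 by 1.27. Of 17 inhibitory receptors 7 rose (41.2%) and 8 fell (47.1%), shares near the 35.7% and 37.0% of all genes. Cd200 (5.59), Ctla4 (4.48), Pdcd1 (4.42) and Lag3 (3.49) rose, and Klrg1, a marker of short-lived effectors, fell by 5.20 from a mean of 3.77 CPM. Of 24 cytokine receptor chains 5 rose and 15 fell. Il2ra, the chain that gives the IL-2 receptor its high affinity, was at 145, 18.4, 19.9, 74.8 and 30.3 CPM at 0h and 1028, 830.4, 919, 958 and 955 CPM at 24h, with mice 1 and 4 the highest at 0h, and rose by 4.50 (SE 0.443, edgeR adjusted p = 2.99e-05). The IL-12 receptor chains Il12rb1 and Il12rb2 rose by 2.89 and 2.96, the shared chain Il2rb had a log2 change of 0.41 that did not pass (adjusted p = 0.0929, and 0.00584 to 0.036 under the 4 alternatives that call it), and the IL-6 receptor Il6ra fell by 3.51. Il7r, the survival receptor of naive and memory cells, went from 638, 683, 693, 673 and 431 CPM to 29.1, 23.9, 31.2, 31.2 and 34.6 CPM, a log2 change of -4.37 (SE 0.174, edgeR adjusted p = 3.8e-07).

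Genes of quiescence and of circulation through lymphoid organs fell. Of 26 quiescence genes 21 fell and 3 rose, 13 of them falling at least 4-fold, with a median of -2.03. Klf2 (ENSMUSG00000055148), which drives the homing and egress receptors, was at 287, 387, 527, 381 and 259.7 CPM at 0h and 5.92, 5.77, 5.37, 7.96 and 8.38 CPM at 24h, a log2 change of -5.76 (SE 0.242, edgeR adjusted p = 5.09e-07). Tsc22d3 (-5.35) and Pik3ip1 (-4.44), a glucocorticoid-induced leucine zipper protein and an inhibitor of PI3 kinase, fell, and the naive-state repressors Bach2 (1.22) and Foxp1 (0.64) rose. Of 22 homing and egress receptors 14 fell and 5 rose. S1pr1, the receptor by which lymphocytes leave lymphoid organs, went from 557, 648, 577, 716 and 384 CPM to 11.8, 10.4, 10.2, 12.7 and 12.5 CPM, a log2 change of -5.62 (SE 0.172, edgeR adjusted p = 1.75e-07). The gut-homing receptor Ccr9 and the marrow and lymph node receptor Cxcr4 changed by -5.65 and -4.75, Ccr4 rose by 3.52, and Ccr7, which leads cells into lymph nodes, was at 375, 512, 544, 515 and 322 CPM at 0h and 429, 422, 417, 423 and 426 CPM at 24h and was not called (log2 change -0.07, adjusted p = 0.645). Ccr7 values of the groups overlapped, and S1pr1 and Klf2 values did not. All 8 Gimap GTPases, small GTPases tied to lymphocyte survival, fell, among them Gimap3 (-2.56) and Gimap6 (-2.27). The part of changes in cell mixture in these falls was not tested, and the falls stand beside a CD8 identity list in which 12 of 13 members fell and 1 rose, with a median of -1.53.

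**Figure D3:**
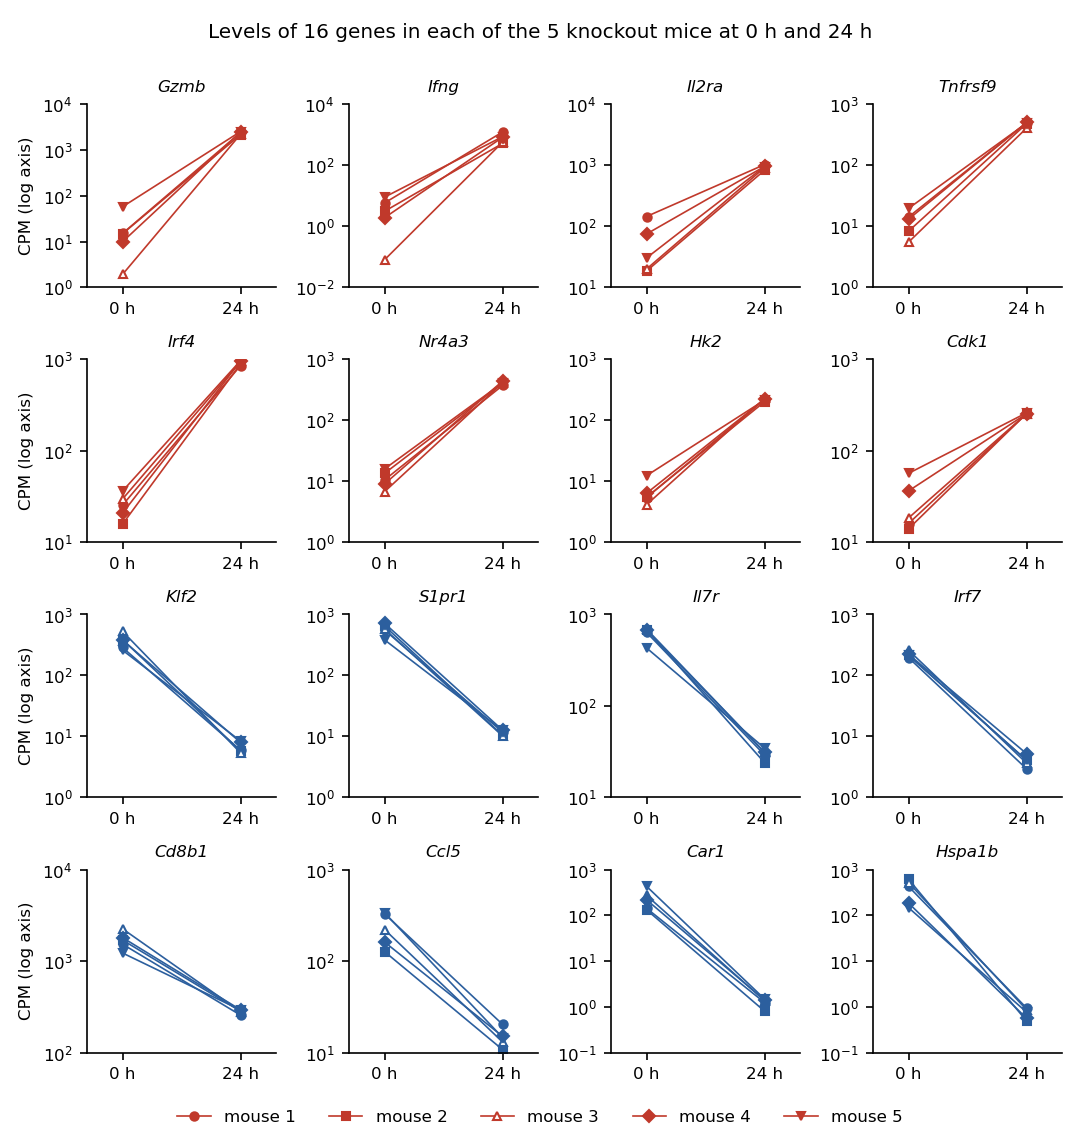
CPM (log axes) of 16 genes at 0h and 24h in each of the 5 KO mice, 1 line per mouse, red for a rise and blue for a fall, with mouse 3 as an open triangle. In each panel all 5 lines run the same way, and the 24h values lie closer together than the 0h values for Gzmb, Il2ra and Cdk1.

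The receptor complex itself was lower. Within the CD8 identity list Cd8b1, the beta chain of the coreceptor, went from 1529, 1695, 2250, 1803 and 1224 CPM to 256, 283, 279, 293 and 291 CPM, a log2 change of -2.57 (SE 0.135, edgeR adjusted p = 1.16e-06). Cd3g (-2.16), Cd2 (-2.13) and Trac (-1.83) fell, and Cd5, a brake on receptor signalling, rose by 0.75. Of 24 proximal signalling genes 17 fell and 7 rose, with the kinases Txk (-3.09) and Prkcq (-1.73) and the phospholipase Plcg1 (-1.70) among the fallers. Feedback regulators of the SOCS, PIM, DUSP and SPRY families rose for 14 of 24 and fell for 4. Spry1 (6.38), Socs2 (5.73), Cish (4.35) and Dusp4 (4.24) were higher, and Socs3 (-3.07) and Dusp1 (-2.54) were lower. Tnfaip3, which encodes the NF-kB inhibitor A20, averaged 107 CPM at 0h and 104 CPM at 24h and was not called (log2 change -0.01, adjusted p = 0.919). Zfp36, whose protein destabilises cytokine messages, fell by 2.63, and the antiproliferative factor Tob1 fell by 2.12.

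Interferon-stimulated genes were the list with the lowest median among the T cell programs, at -2.70. Of 34 tested, 31 fell and 2 rose, and their sum went from 4106, 4313, 4145, 4223 and 5025 CPM to 2166, 2719, 2459.8, 2406 and 2442 CPM. Irf7, the factor that amplifies type I interferon, was at 196, 214, 260, 223 and 214 CPM at 0h and 2.94, 4.09, 3.65, 5.21 and 4.05 CPM at 24h, a log2 change of -5.81 (SE 0.138, edgeR adjusted p = 7.69e-08). Oas2 (-6.51), Rtp4 (-6.00), Rsad2 (-5.59), Ifit3 (-5.07), Ifit1 (-3.61) and Isg15 (-2.71) fell with it. The exceptions were Gbp2 and Iigp1, GTPases known as targets of interferon gamma, which rose by 1.56 and 1.24, from 195 to 577 CPM and from 76.3 to 177 CPM. Antigen presentation genes of MHC class I fell for 14 of 18 and rose for 1, with H2-K1 (-1.81) and B2m (-1.51) among the fallers. H2-K1 has close paralogs, so its counts are uncertain.

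The interferon-stimulated response element, searched on both strands as GAAA, any 2 bases and GAAA, lay in 56.5% of the 23 list promoters found in RefSeq (GRCm38.p6, 250 bases before to 50 after the start) and in 3.77% of the 9336 promoters of all tested genes. The stretches below show it in 2 genes that fell and in Gbp2, which rose, so that both directions can be seen with the same letters. Capitals mark the matches, which may overlap and which begin and end with TTTC where the element lies on the other strand. The Ifit3 stretch is chr19:34583333-34583456, plus strand, that of Isg15 chr4:156200835-156200936, minus strand, and that of Gbp2 chr3:142620564-142620653, plus strand, all upstream of the start and written 5′ to 3′ along the gene.
Ifit3: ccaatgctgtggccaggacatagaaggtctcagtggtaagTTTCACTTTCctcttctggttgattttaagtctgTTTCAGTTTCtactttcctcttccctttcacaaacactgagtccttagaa
Isg15: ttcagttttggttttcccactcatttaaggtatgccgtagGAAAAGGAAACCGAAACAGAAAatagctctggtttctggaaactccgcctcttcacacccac
Gbp2: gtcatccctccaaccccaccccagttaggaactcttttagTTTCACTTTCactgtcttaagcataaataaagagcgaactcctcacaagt
A match is a description of the letters and says nothing of binding.

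The growth machinery rose broadly. All 40 nucleolar ribosome biogenesis genes rose, with a median of 1.47, and the list sum went from 5114 to 6764 CPM to 20179 to 21480 CPM. Nucleolin (Ncl), an abundant chaperone of ribosomal RNA, rose by 2.20 from 1131 ± 204 CPM to 5119.8 ± 269.9 CPM (SD, n = 5 mice at each time), and Nolc1 (2.19) and Mybbp1a (2.10) rose alike. All 20 aminoacyl-tRNA synthetases, which load amino acids for translation, rose with a median of 1.37. Of 8 listed subunits of the CCT chaperonin, which folds actin and tubulin, 7 were tested and all 7 rose, with a median of 1.28. Translation initiation factors rose for 29 of 38 and fell for 4, with Eif5a up by 2.10 and Eif4a2 down (-0.71). Of 31 proteasome genes 29 rose and 0 fell. RNA polymerase I and III genes rose for 15 of 22, among them Polr1b (1.81), and among the 3 that fell were Polr3gl (-2.37) and Maf1 (-1.76), the latter a repressor of polymerase III. Myc, the factor that drives much of ribosome synthesis, rose by 1.94, from 168 ± 24.8 CPM to 638 ± 24.7 CPM (SD, n = 5), and Mxd4, which competes with it for Max, fell by 4.17.

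The proteins of the mature cytosolic ribosome had more fallers than risers. Of 83 cytosolic ribosomal protein genes 13 rose and 43 fell, with a median of -0.40, and without mouse 3 the counts were 20 and 42 with a median of -0.25. Rps15a (-1.48) and Rps24 (-1.43) fell. These short messages have many processed copies in the genome, so their counts are uncertain, and the 0h library of mouse 3 held the highest sum, at 58349.8 CPM against 31545 to 37593 CPM in the other mice. Mitochondrial ribosomal proteins moved the other way, 68 of 78 higher and 1, Mrpl24 (-0.67), lower, with a median of 0.91. Mitochondrial import and chaperone genes rose for 26 of 34 and fell for 1, including Tomm40 (2.29), Timm50 (1.90) and Hspd1 (2.66).

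Heat-shock chaperones rose for 14 of 23 and fell for 5, and the fallers held the largest called decrease among genes of at least 20 CPM. Hspa1b, an inducible Hsp70, was at 427, 613, 519, 185 and 147 CPM in mice 1 to 5 at 0h and at 0.938, 0.489, 0.86, 0.56 and 0.762 CPM at 24h, a log2 change of -8.94 (SE 0.307, edgeR adjusted p = 2.61e-07). Mice 4 and 5 were the lowest at 0h, and all 0h values lay far above all 24h values. Its neighbour Hspa1a fell by 10.20, from 195 to 0.161 CPM. The pair lies at chr17:34969190-34972156 and chr17:34956436-34959238 (GRCm38) and is nearly identical in sequence, so reads may be split between them. The constitutive mitochondrial Hsp70 gene Hspa9 rose by 1.88.

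Metabolic genes were described by pathway. Glycolysis and glucose transport genes rose for 19 of 25 and fell for 3, with a median of 1.37. Hexokinase 2 (Hk2), the inducible first enzyme, was at 5.43, 5.5, 4.14, 6.37 and 12.4 CPM at 0h and 219.7, 202, 230, 222 and 215 CPM at 24h, with mouse 5 the highest at 0h, and rose by 5.07 (SE 0.233, edgeR adjusted p = 7.33e-07). Tpi1 (2.65), Pkm (2.14) and Slc2a1 (1.43) rose, and Pdk1, which holds pyruvate back from the mitochondrion, fell by 1.62. Serine, glycine and one-carbon enzymes rose for 15 of 20 and fell for 1, with Gcat (4.41), Shmt1 (3.58), Psat1 (2.84) and Mthfd2 (2.79) among the risers. De novo purine enzymes rose for 17 of 19 and fell for 1, Pfas by 2.57 and Ppat by 1.99, and pyrimidine and deoxynucleotide genes rose for 15 of 21 and fell for 5. Ribonucleotide reductase Rrm2 and thymidylate synthase Tyms, which serve DNA synthesis, rose by 3.58 and 3.04, and the mitochondrial kinase Tk2 fell by 2.17. Amino acid transporters rose for 14 of 23 and fell for 5, with Slc7a5, the large neutral amino acid carrier, up by 2.72, the arginine carrier Slc7a1 up by 2.03, and Slc43a2 down (-2.05). Arginine, proline and polyamine genes rose for 20 of 27 and fell for 5: Odc1 and Srm, which make putrescine and spermidine, rose by 2.82 and 2.76, and Gatm, which turns arginine toward creatine, fell by 4.17.

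Bcat1, which transaminates branched-chain amino acids, rose from 1.54 to 241 CPM, a log2 change of 7.49 (SE 0.539, edgeR adjusted p = 5.4e-06). ATF4 targets rose for 15 of 24 and fell for 3, and the stress members Ppp1r15a (-2.30) and Ddit3 (-1.61) were among those that fell. Sterol and fatty acid synthesis genes rose for 29 of 38, with Cyp51 (3.26) and Sqle (2.65) higher, and 5 fell, including the acetate enzyme Acss2 (-2.72) and the cholesterol exporter Abca1 (-2.65). The TCA cycle list rose for 23 of 31 (2 fell) with a median of 0.64. Oxidative phosphorylation subunits, nuclear-encoded here since the table holds 0 mitochondrially encoded genes, rose for 45 of 78 and fell for 10 with a median of 0.39, and without mouse 3 for 56 and 10. Fatty acid oxidation genes rose for 5 (22.7%) and fell for 7 (31.8%) of 22, against 35.7% and 37.0% of all genes. Cpt1a, the pathway's gatekeeper at the mitochondrial membrane, was among the fallers (-1.75). Autophagy and lysosome genes fell for 28 of 41 and rose for 3, with Ctsa (-2.13) and Npc2 (-1.71) among the fallers and Gabarapl1 (2.21) among the risers. Txnip, a brake on glucose uptake, fell by 3.68 from 933 to 72.4 CPM, and the glutathione-cleaving enzyme Ggt1 fell by 6.26, while thioredoxin and its reductase (Txn1, 2.23, and Txnrd1, 1.95) rose.

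Genes of replication and mitosis rose with 2 exceptions. All 50 S phase and replication genes rose, 32 at least 4-fold, with a median of 2.16, and their sum went from 2228, 2376, 2718, 3159 and 4632 CPM in mice 1 to 5 at 0h to 13758, 14272, 14041, 13746 and 13764 CPM at 24h. The highest 0h sum, that of mouse 5, lay below all 24h sums. Mcm6, a subunit of the replicative helicase, was at 180.3, 187, 224, 253 and 407 CPM at 0h and 836, 902, 879, 835 and 826 CPM at 24h, a rise of 1.84 (SE 0.179, edgeR adjusted p = 2.62e-05). Uhrf1 (3.52), Orc1 (3.38), Mcm10 (3.31) and Mcm5 (2.49) rose as well. Of 44 genes of G2 and mitosis 42 rose, 39 at least 4-fold, and 2 fell, with a median of 2.72. Cdk1, the mitotic kinase, went from 16.1, 14.1, 18.5, 36.5 and 56.8 CPM to 254, 256, 255, 255 and 261 CPM, a rise of 3.38 (SE 0.303, edgeR adjusted p = 1.77e-05), and Aurkb (3.66), Espl1 (3.57) and Ccnb1 (2.78) rose. The 2 that fell were the securin gene Pttg1 (-1.08) and the phosphatase gene Cdc25b (-0.55). Among G1 regulators 19 of 26 rose and 4 fell, with Ccne2 (2.95) and E2f1 (2.57) up. The inhibitor Cdkn1b (p27) of quiescent cells fell by 2.48, whereas Cdkn1a (p21) rose by 6.68, from 0.684 to 74.6 CPM.

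Promoter letters were compared between the lists. The E2F motif, searched as TTTCGCGC or TTTGGCGC on both strands, lay in 31% of the 42 S phase promoters found, in 2.78% of the 36 of G2 and mitosis and in 1.9% of all 9336. The CHR motif TTTGAA, known from late cell cycle promoters, lay in 69.4% of the G2 and mitosis promoters, 14.3% of the S phase promoters and 14.2% of all, and the CCAAT box in 75%, 61.9% and 43.2%. The E-box CACGTG, a Myc motif, was in 23.5% of 34 nucleolar promoters and 11.9% of all. Its share was 23.1% in the sterol and fatty acid list, 21.1% among early factors and 16.7% in the S phase list. In the other lists searched it was 0% to 8.7%. The CCAAT box was in 80.8% of the sterol and fatty acid promoters, and in 17.6% to 47.8% in the remaining lists. The stretches below show the E2F letters in a helicase subunit and in a subunit of the origin recognition complex, and the paired CCAAT boxes of cyclin B1, with the matches of either strand in capitals. In Mcm6 the first run of capitals holds overlapping matches of both E2F forms. The first is chr1:128359706-128359855, minus strand, the second chr4:108579387-108579453, plus strand, where the match lies on the other strand, and the third chr13:100786509-100786625, minus strand, each upstream of the start and 5′ to 3′ along the gene.
Mcm6: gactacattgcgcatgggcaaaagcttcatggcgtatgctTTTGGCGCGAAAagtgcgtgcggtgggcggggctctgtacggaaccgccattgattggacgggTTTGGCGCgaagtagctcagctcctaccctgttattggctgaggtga
Orc1: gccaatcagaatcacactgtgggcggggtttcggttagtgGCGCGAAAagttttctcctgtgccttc
Ccnb1: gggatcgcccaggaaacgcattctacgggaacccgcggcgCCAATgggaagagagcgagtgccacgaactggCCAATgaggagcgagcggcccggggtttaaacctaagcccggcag
The 6 stretches printed here and for the interferon genes were chosen after the changes of their genes were seen, and the part of base composition in these shares was not tested.

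Survival, p53 and chromatin genes moved in both directions. Over all genes 35.7% rose and 37.0% fell. The shares were 47.4% and 26.3% in the Bcl2 family and 57.7% and 30.8% among p53 targets. They were 57.7% and 34.6% among DNA methylation and Polycomb genes and 14.0% and 43.3% among numbered zinc finger genes. Of 19 Bcl2 family genes 9 rose and 5 fell: Bcl2l1, which encodes the survival protein Bcl-xL, rose by 3.97 from 22.7 to 335 CPM, and Bcl2 and the death-promoting Bmf changed by -1.04 and -2.57. Of 26 p53 targets 15 rose and 8 fell, with Plk2 (6.01) and Cdkn1a among the risers and Trp53inp1 (-3.03) and Sesn1 (-1.99) among the fallers. DNA methylation and Polycomb genes rose for 15 of 26 and fell for 9. Ezh2, the methyltransferase of dividing cells, rose by 2.72 while its paralog Ezh1 fell by 1.77, and Dnmt3a rose by 2.13 while the oxidase gene Tet1 fell by 1.99. Numbered zinc finger genes, a large family of mostly repressor proteins, fell for 148 of 342 and rose for 48, with a median of -0.31 and Zfp945 (-4.05) among the fallers. Zbtb32, an activation-induced repressor counted with the zinc fingers, rose by 6.60. Of 26 cytoskeleton genes 16 rose and 5 fell, and the lamins parted, Lmnb1 rising by 2.26 and Lmna falling (-2.66).

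**Figure D4:**
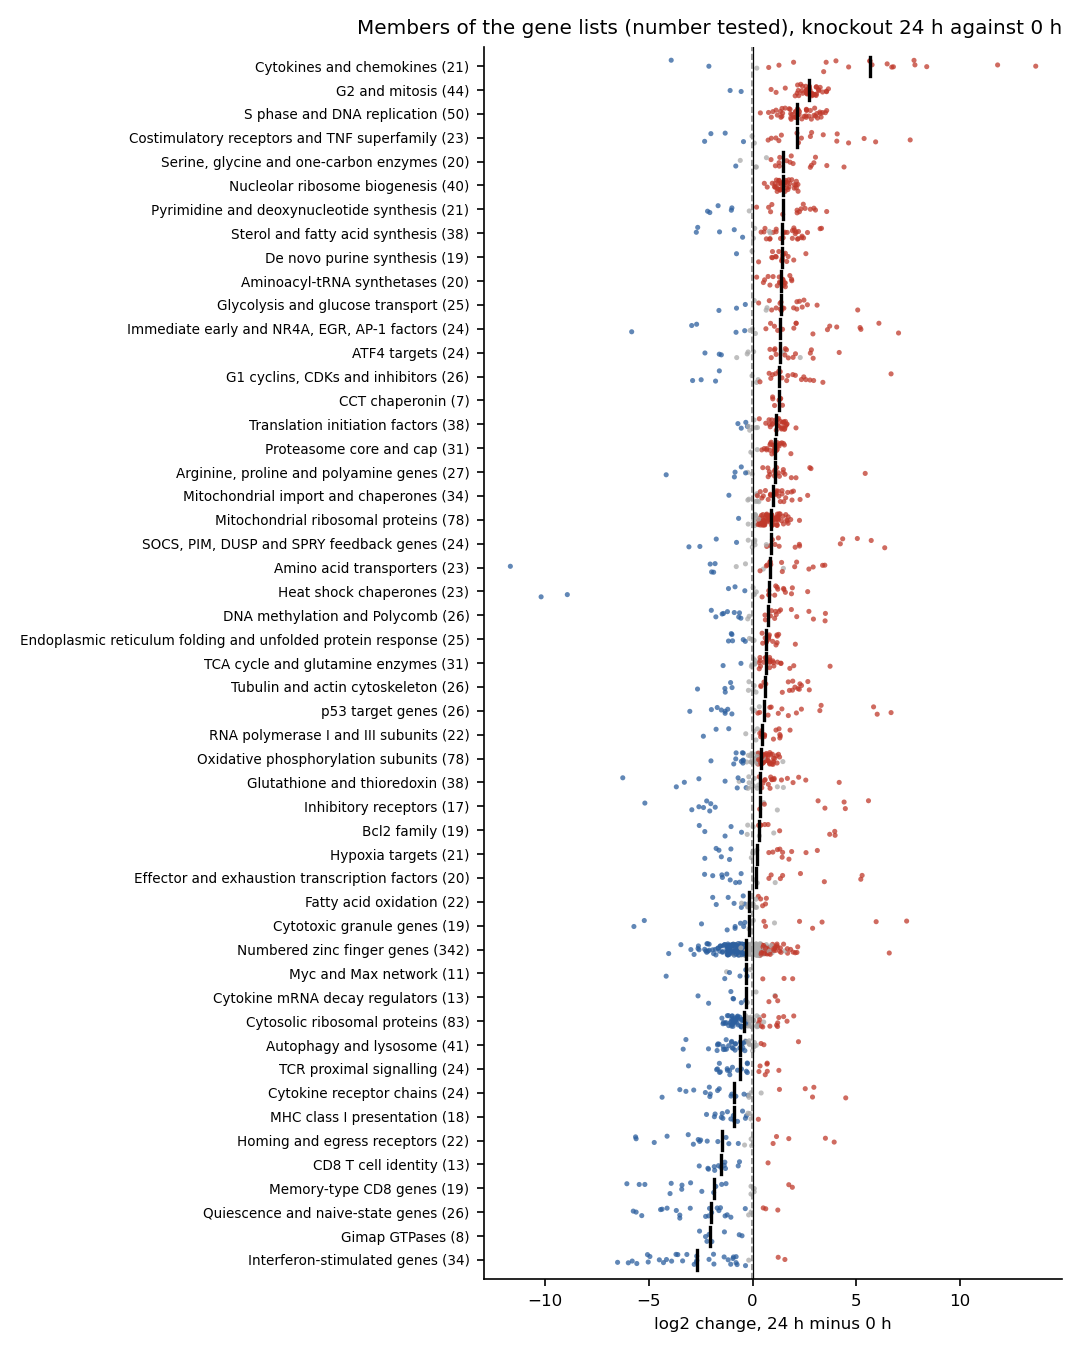
Log2 change from 0h to 24h of each tested member (1 point per gene) of 51 gene lists, ordered by median (black bar), red for called risers, blue for called fallers and grey for genes not called; the dashed line is the median of all tested genes. Cytokines have the highest median, at 5.66, and interferon-stimulated genes the lowest, at -2.70, and the points of the replication and nucleolar lists are all red.

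The 15 KO libraries of 2h, 6h and 12h show by which path the 24h state was reached. They were fitted with the 0h and 24h libraries in 1 model of 12638 genes with mouse as a block, in which each time was compared with the same 0h libraries, so the comparisons are not independent, and its values differ slightly from those above as a separate fit with its own filter, scaling and spread. Of the 807 genes that rose at least 4-fold by 24h, 576 (71.4%) had their highest mean at 24h, 119 at 6h and 22 at 2h. Of the 1230 that fell at least 4-fold, 943 (76.7%) were lowest at 24h. Both sets were selected by their 24h values, which favours an extreme at 24h. The median change of the 807 took the values 0.07, 1.45, 2.00 and 2.91 over the 4 later times. At 2h 246 of the 807 were called lower than at 0h, a smaller share than the 37.5% of all 12638 genes. At least 4-fold rises were called for 3.29%, 5.17% and 4.91% of genes at the 3 earlier times and such falls for 3.84%, 7.03% and 10.3%. A rise of this size at 1 of them was called for 771 genes tested in both fits, of which 96 were not called at 24h and 36 were called lower. The corresponding falls were 1475 genes, of which 181 were not called at 24h and 148 were called higher.

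The cell cycle lists went down before they went up. Over all genes of this fit 31.2%, 36.7%, 38.2% and 41.8% rose in order of time, and 37.5%, 38.8%, 39.0% and 37.9% fell. Of 44 G2 and mitosis genes 39 fell at 2h, 43 at 6h and 37 at 12h, with medians of -1.66, -2.08 and -1.30, and 42 rose at 24h with a median of 2.89. Cdk1 changed by -1.93, -2.06, -1.005 and 3.60 at the 4 times, and Rrm2 by -2.11, -2.76, -1.28 and 3.83. S phase genes fell for 37 of 50 at 2h and 33 at 6h, then rose for 34 at 12h and 50 at 24h. Ribosome biogenesis came earlier: 40 of 40 nucleolar genes were already higher at 6h, with a median of 1.8, and the median at 24h was 1.59. The 0h level of the mitotic genes was highest in mouse 5, where the sum was 2263 CPM against 787 to 1489 CPM in mice 1 to 4. The erythroid and platelet sum was lower at each later time, with medians of 489, 72.7, 37.5, 18.3 and 8.41 CPM from 0h on, and the 0h sum was also highest in mouse 5, at 824 CPM against 288 to 555 CPM in mice 1 to 4. The part of these cells in the early fall of the cell cycle genes was not tested.

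Several early factors and effector messages were higher before 24h than at 24h. Cytokines had list medians of 3.43, 5.52, 4.95 and 4.47 over the same times. Xcl1 changed by 4.22, 9.02, 8.58 and 6.91, and Tnfrsf9 by 1.97, 7.19, 6.56 and 5.45, whereas Gzmb climbed at each step, by 0.49, 3.32, 6.06 and 7.48. Nr4a3 was at 6.84 by 2h and at 5.32 by 24h. Tnfaip3, not called at 24h, was at 3.28 at 2h and 2.29 at 6h, and Ccr7 was at 1.24 at 2h and 0.82 at 12h. Cdkn1b and Mxd4, low at 24h, were first higher at 2h, by 0.91 and 1.12. Gbp2 was highest at 6h, at 3.13, and Irf7 changed by -1.05, -1.83, -3.68 and -5.69.

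**Figure D5:**
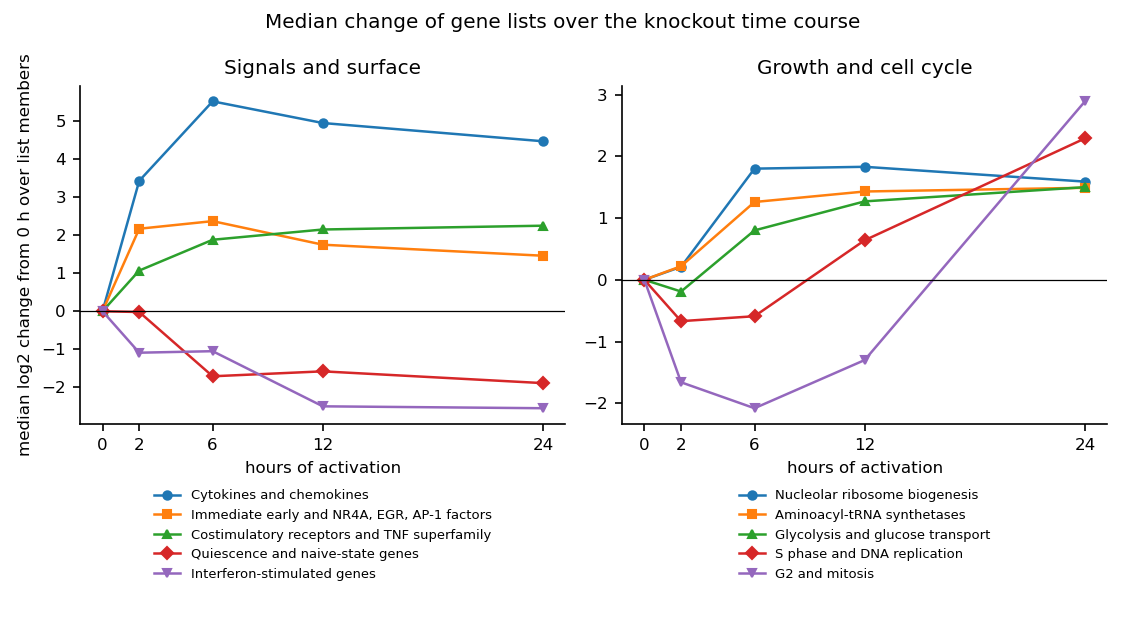
Median log2 change from 0h (vertical axis) of 10 gene lists against hours of activation in the 25 KO libraries, with 0h at 0. The G2 and mitosis list lies at -2.08 at 6h and at 2.89 at 24h, while the nucleolar list is at 1.8 and 1.59.

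Whether the change from 0h to 24h differed between KO and WT cells was tested as the difference of the 2 changes over 20 libraries, which share no samples between genotypes. In edgeR 0 of 12599 genes were called (0.0%), with 656 at an unadjusted p under 0.05, and limma-voom called 0, while DESeq2 called 37, of which 34 had the lower change in KO. WT mice 1 and 4 differed from the others before culture: the 0h sums of the immature thymocyte list in WT mice 1 to 5 were 2317, 30.2, 63.7, 1750 and 44.8 CPM, against 43.5 to 144 CPM in KO, and those of the G2 and mitosis list were 12029, 625, 609, 9688 and 672 CPM. Without these WT mice edgeR again called 0, of 12703 (0.0%), with 929 at an unadjusted p under 0.05, limma-voom 0 and DESeq2 178. In a simulation of the fit with all mice 4-fold differences were called for 50% of the genes given one and 2-fold differences for 6%. Most differences of 2-fold or smaller were thus not detectable in that fit, and the fit without WT mice 1 and 4 was not simulated. With all mice the smallest adjusted p of any gene in edgeR was 0.39. Hspa1b (KO -8.83, WT -4.91, difference -3.92 with SE 0.659, adjusted p = 0.581 by edgeR) and the chemokine receptor gene Cxcr3 (-1.25 and 1.01, adjusted p = 0.872) did not pass.

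The list medians of the genotypes depended on the WT mice used. S phase genes had a median change of 2.19 in KO and 1.84 in WT, and without WT mice 1 and 4 of 2.20 and 3.06. For G2 and mitosis the values were 2.75 and 2.22, and then 2.75 and 4.12. Without WT mice 1 and 4, edgeR gave an unadjusted p under 0.05 for 21 of 50 S phase and 29 of 44 G2 and mitosis genes. Over all genes it did so for 929 of 12703, and with all mice for 0 genes of either list. The change was larger in KO for 8 of the 50 and 3 of the 44, and 0 genes passed adjustment. For Gzmb the KO change was 7.58 and the WT change 8.44, a difference of -0.86 (SE 0.795, edgeR adjusted p = 0.887). For Ifng it was 8.12 against 8.30, a difference of -0.18 (SE 0.807, adjusted p = 0.974). At 24h the S phase sum was 13758, 14272, 14041, 13746 and 13764 CPM in KO mice 1 to 5 and 7531, 14966, 14741, 12708 and 15187 CPM in WT mice 1 to 5. Before culture the WT sums had been 13328, 2134, 2839, 10851 and 2123 CPM. The library 0h of WT mouse 3 also stood apart in its CD8 identity sum, at 29961 CPM.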

How the data were processed

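RNA of splenic CD8+ T cells was selected for poly(A) and prepared with a kit that keeps strand, per the labels' protocols. The authors deposited raw counts per gene with no normalization. Tools named in the submitters' processing notes are featureCounts 1.4.6, STAR 2.4 and CASAVA 1.8.2, with the build GRCm38. The annotation release, the strand setting and the treatment of reads with several matches are not given in the sources used here, so counts of antisense partners and near-identical copies are uncertain. Of 21647 Ensembl identifiers 21583 were matched to a GENCODE M21 symbol.

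Groups were taken from genotype and time in the labels, and mouse numbers mark the same animal across times. Deviations from the group means of libraries of the same KO mouse correlated by 0.00 to 0.286 (mean 0.156) over 9756 genes, and those of different mice by -0.218 to 0.255 (mean -0.038). The ranges overlap, and since deviations sum to 0 within a time, the 2 means are not independent. The 10 KO libraries were fitted in edgeR 4.0.16 (R 4.3.3) with TMM scaling, filterByExpr (minimum count 10, total 15), robust quasi-likelihood and mouse as a block, leaving 4 residual degrees of freedom. The SE is the log2 change divided by the square root of F. CPM use the TMM-scaled library sizes of the fit. List sums, which include members under the filter, are scaled over all 50 libraries. So are the levels of lineage markers other than Igkc, Car1, Gzma and Cd8b1, which are on the scale of the fit. On simulated data the test recovered 66% of 2-fold and 93.9% of 4-fold changes, with 10 false calls among 11832 genes. At most 50 genes were changed at each size and the rest were left flat. In the data 72.7% of genes were called, which loosens the adjusted threshold, so these rates do not describe the comparison itself. Paired sums of 5 mice were not tested, since an exact sign permutation cannot go below p = 0.0625.

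Alternatives were other scalings, filters and sample sets, DESeq2 1.42.0, limma-voom 3.58.1, no block, and leaving out each mouse. The comparison, the 60 gene lists and the genes were chosen with earlier results of these data known. The rule for names took, per direction, the 15 largest called changes with at least 20 CPM in the higher group and the same direction in all mice, and per list up to 5 largest called changes, up to 2 called against the list's direction and up to 2 not called with the highest level, with up to 5 transient genes and 5 genotype differences per direction; the text names a subset picked after their values were seen, and the lineage markers, switched-off genes, Ccnb1, Mcm5, Mcm6, Ifit1 and Isg15 were named outside the rule. Promoters are RefSeq's, matched by symbol. Some items, among them whether the knocked-out gene's counts match the genotype labels, are not reported here.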

Additional observations from a re-analysis of the deposited data

Results flagged for a closer look

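In 7 of 66 groups of 5 libraries looked at (19 genes, 11 list sums and 3 library measures at each time), 1 library lay far from the other 4, its gap to the nearest exceeding 0.71 of the range. Chance gives about 1 in 20. Mouse 5 was the distant one at 0h for Gzmb (57.5 CPM, against 1.91 to 15 CPM in the others), for Il7r (431 CPM, against 638 to 693 CPM), for Hk2 (12.4 CPM, against 4.14 to 6.37 CPM) and for the sum of interferon-stimulated genes (5025 CPM, against 4106 to 4313 CPM). Mouse 3 was the distant one at 0h for total counts (12773186, against 22571616 to 23207373) and for the sum of cytosolic ribosomal proteins (58349.8 CPM, against 31545 to 37593 CPM), and at 24h for Tnfrsf9 (407 CPM, against 481 to 504 CPM).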

How the results depend on the processing

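Without the replicate block, 4303 genes rose and 4693 fell between 0h and 24h in KO (with it 4270 and 4415), and among the named genes the block changed the calls of Eomes (adjusted p = 0.0561 without it) and Cd4 (0.0328 without it). Leaving out each mouse in turn gave 3883 to 4599 genes that rose and 3990 to 4859 that fell, and 753 to 884 and 1185 to 1340 at least 4-fold. None of the other scalings, filters, tools and sets of libraries run on these counts moved them by more than 1.5 times, and the counts at 2h, 6h and 12h stayed within that bound without the block, with library totals and without each mouse, the alternatives run on them. The count of differences between KO and WT changes was 0 in edgeR and 0 when each mouse was left out, 1 without the replicate block, 37 by DESeq2 and 178 by DESeq2 without WT mice 1 and 4 (these last alternatives were added after the data were seen), and the cause was not tested. The share of S phase promoters with an E2F motif was 19.0% for TTTCGCGC alone and 16.7% for TTTGGCGC alone. Il2rb, not called, was called by DESeq2 (adjusted p = 0.0219), over all 25 KO libraries (0.00584) and without mouse 1 (0.036) or mouse 5 (0.0302). Of 1560 counts over lists and alternatives 1489 stayed within 1.5 times. Of 186 named genes 177 kept direction and call under all 13 alternatives run on them. Tnfaip3, not called, changed sign to 0.036 with DESeq2 size factors, 0.036 by DESeq2, 0.041 with no filter, 0.096 over all 25 KO libraries, 0.105 over all 50 with -0.054 to 0.121 when each mouse was left out, and Ccr7, not called, to 0.052, 0.043, with -0.19 to 0.021 when each mouse was left out. The fit of all 50 libraries lost the calls of Eomes, Eif4a2, Cdc25b, Ccnb1 (adjusted p = 0.053) and Cxcr3. Depth limits genes under about 1 CPM, where a few counts decide a value.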
